A study of Mus musculus with 12 samples.

Results

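Interleukins are secreted signalling proteins through which immune and tissue cells address one another, and each acts through a receptor assembled from chains that several interleukins often share. In fat tissue they are best known from inflammation: macrophages and other leukocytes make IL-1 and IL-6, while IL-33 and the IL-4 and IL-13 receptors belong to the signalling that goes with tissue repair. The genes described here are the protein-coding genes whose mouse symbol begins with Il and a digit. There were 55 of them among 19547 genes in the deposited table, and all 55 had enough counts to be tested. Every gene in that table had counts in all 12 libraries, so it shows no interleukin gene that was unread in some library. For example, Il2, Il5, Il13 and Il17a were not among the 55. The lowest levels given below are therefore the lowest of the genes in the table. The symbol chooses by name and not by function, so it also takes in the binding protein Il18bp, the enzyme Il4i1 and the cytokines Il16 and Il34, which are named interleukins without belonging to the families below.

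RNA was measured by sequencing in 12 libraries of mouse adipose tissue, 4 from each of 3 groups of fat grafts examined at 8 weeks. CAL_Dll4i grafts had ASC added and Dll4 inhibited, CAL grafts had ASC added, and control grafts had neither. ASC commonly stands for stem or stromal cells derived from adipose tissue and CAL for cell-assisted lipotransfer, and Dll4 is a Notch ligand of endothelial cells. All 12 libraries came from wild-type C57BL/6 mice aged 16 weeks. The labels do not give the means or dose of Dll4 inhibition, the source of the ASC, whether strain and age describe donor or host, or whether the libraries are separate animals. The p-values therefore cover only how far these libraries spread, which may be technical.

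Sequencing depth was between 55883051 and 70804141 counts per library. The adipocyte list was present in full (10 of 10 genes), with summed levels of 921 to 2934 CPM (TMM-scaled counts relative to a common library size). The macrophage list of 10 genes summed to between 4019 and 4687 CPM in every library. Skeletal muscle markers (7 of 11 in the table) summed to 705 CPM in CAL_Dll4i replicate 3, and to 191 and 428 CPM in CAL replicates 1 and 2, against 4.61 to 20.2 CPM in the other 9. Keratinocyte markers (6 of 8 in the table) ran from 11.97 to 502 CPM in CAL_Dll4i, from 9.98 to 85.8 CPM in CAL and from 10.8 to 266 CPM in control.

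Receptor chains led the interleukin genes in level. On the deposited TPM scale, which allows for transcript length, 6 genes averaged at least 100 TPM over the 12 libraries, 27 lay between 10 and 100, 16 between 1 and 10, and 6 below 1. Il11ra1, the IL-11 receptor chain, came first at 259 ± 41.9 TPM (SD, n = 12). Il2rg, the gamma chain shared by several lymphocyte interleukins, followed at 173 ± 36.4 TPM, Il7r, the IL-7 receptor, at 166 ± 13.5 TPM, and Il6st, which encodes gp130, the signalling chain shared by the IL-6 family, at 164 ± 10.8 TPM. These 3 did not differ from one another beyond their spread. Il10rb, the shared second chain of the IL-10 receptor, averaged 133 ± 5.65 TPM and Il1b, the inflammatory cytokine IL-1 beta, 100.5 ± 43.3 TPM. Il1b was thus the only secreted interleukin among the first 6. Next came Il1rn, the IL-1 receptor antagonist, at 72.1 ± 12.2 TPM, then Il10ra at 66.9 ± 11.1, Il1r1 at 49.0 ± 8.39, Il4ra at 48.7 ± 10.3, Il13ra1 at 47.0 ± 7.12, Il33 at 44.6 ± 13.6, Il2rb at 43.7 ± 14.0, Il17ra at 43.1 ± 5.33 and Il15 at 39.9 ± 7.08 TPM. From Il1rn down these neighbours lay within one another's SD, except Il10ra itself and Il1r1, whose means were further apart than either SD.

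At the low end of the genes in the table were Il31ra (0.270 ± 0.0813 TPM), Il17re (0.581 ± 0.319), Il17rb (0.643 ± 0.241), Il4 (0.707 ± 0.270), Il9r (0.823 ± 0.560) and Il11 (0.928 ± 1.36 TPM). Single counts behind the 55 genes ranged from 5 reads for Il4 in CAL replicate 4 to 27315 for Il6st. The steadiest across the 12 libraries were Il10rb, Il6st and Il6ra, whose CPM had coefficients of variation of 5.04%, 6.89% and 7.91%, and the least steady were Il6 (144%), Il11 (138%) and Il5ra (85.0%).

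**Figure D1:**
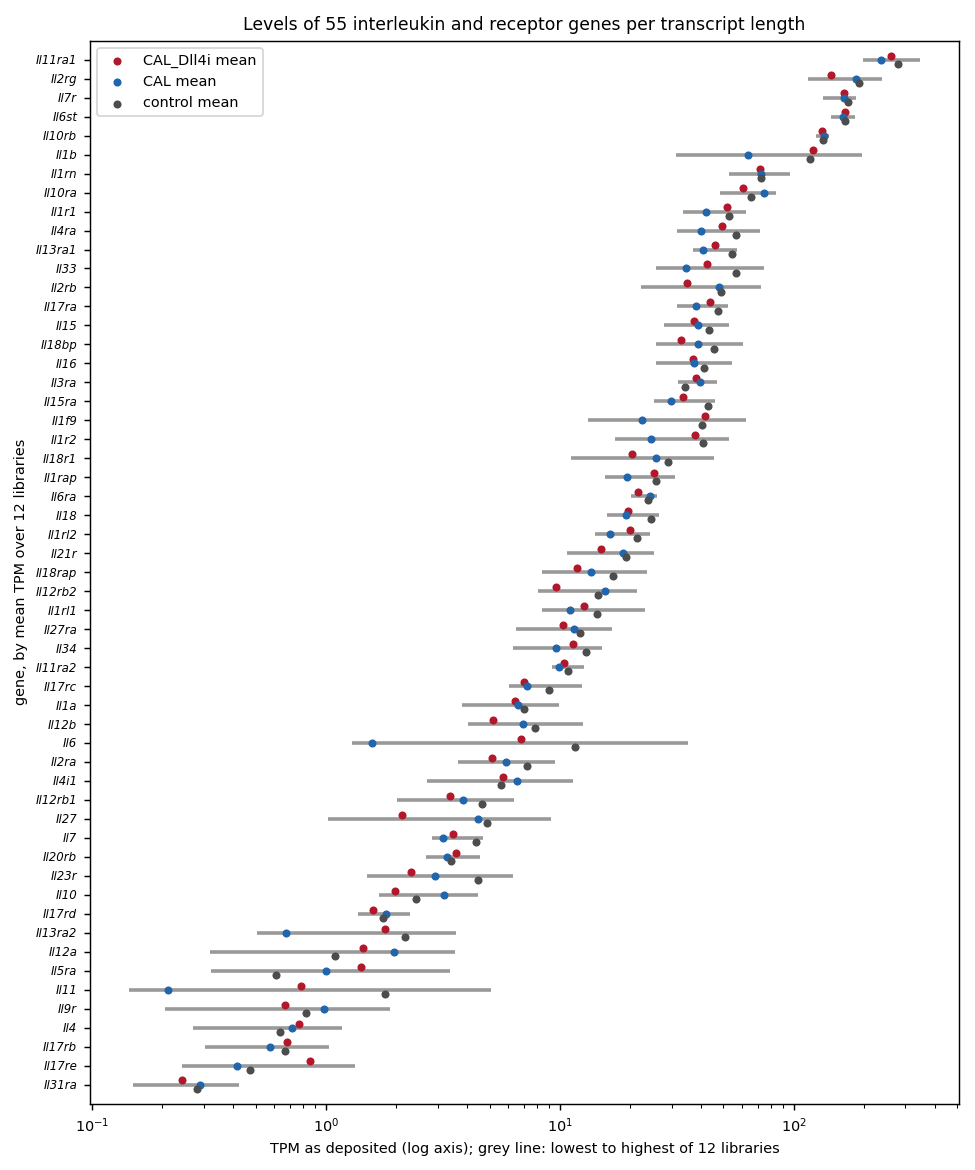
Level of each of the 55 genes in deposited TPM (log axis), ordered by the mean over 12 libraries. Coloured points are group means of 4 libraries and the grey line runs from the lowest to the highest library; Il6, Il11 and Il13ra2 show CAL means well to the left of the other group means.

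CAL against control asks how interleukin RNA differed once ASC were added to the graft. The estimates leaned lower: 41 of the 55 genes had a lower estimate in CAL (74.5%, against 51.6% of all 18551 genes tested). The median log2 fold change was -0.17, against -0.01 over all genes. With 1 library left out, the number lower ran from 33 (without control replicate 1) to 42. It was 36 without the libraries high in skeletal muscle markers. The share of all genes in these refits is not given. By the quasi-likelihood test of edgeR, adjusted by Benjamini-Hochberg over all genes, no interleukin gene was called in either direction. The background was 0.00539% of all genes called higher and 0% called lower, and the smallest adjusted p among the 55 was 0.132, for Il13ra2. At an unadjusted p under 0.05, 15 of 55 were lower (27.3%, against a background of 7.57%) and 1 was higher (1.82%, against 7.01%). All 4 CAL libraries lay below all 4 controls for 8 genes (14.5%, against 3.75% of all genes) and above them for 1 gene (1.82%, against 3.61%). DESeq2, run as an alternative, called 4 lower, which were Il13ra2, Il11, Il6 and Il7 (7.27%, against 1.49% of the genes it tested), and 0 higher (background 1.84%), while voom with sample weights called 0 (background 0.102% lower and 0.372% higher). The summed adipocyte markers ran the other way, at 1543 to 1978 CPM in CAL_Dll4i, 2061 to 2934 CPM in CAL and 921 to 1994 CPM in control, so that every CAL library lay above all others. Their part in the lower interleukin estimates was not tested. In bulk tissue, fewer cells of a type and less RNA per cell cannot be told apart.

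Setting CAL_Dll4i against CAL compares grafts with ASC that differ in Dll4 inhibition. Here 31 estimates were higher and 24 lower, with a median of 0.04, against 0.00 over all genes. edgeR, DESeq2 and voom called 0 interleukin genes at an adjusted p under 0.05, where the background was 0% by edgeR and voom and 0.0054% lower by DESeq2. At an unadjusted p under 0.05, 12 of 55 were higher (21.8%, against 4.47%) and 1 was lower, Il10 (1.82%, against 2.95%). The groups did not overlap for 4 genes, which were Il6, Il11, Il13ra2 and Il1r2, all higher in CAL_Dll4i (7.27%, against 1.58%). None was lower without overlap (background 1.76%). The count of 12 was 5 without CAL_Dll4i replicate 1, 6 without CAL replicate 1, and 7 without CAL replicate 4 or CAL_Dll4i replicate 4. The number lower was 4 without CAL replicate 2 and 3 without control replicate 3. Shares of all genes are not given for these refits, so a shift of the background is not seen. This comparison and the previous one share the CAL libraries, so their values are not independent.

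For CAL_Dll4i against control 19 estimates were higher and 36 lower, with a median of -0.10 against -0.00 over all genes. edgeR, DESeq2 and voom again called 0 of the 55 (for edgeR and voom the background was 0% too, for DESeq2 0.27% higher and 0.0594% lower). At an unadjusted p under 0.05 only Il17re was higher (1.82%, against 3.86%), and Il23r and Il18bp were lower (3.64%, against 3.06%), shares no larger than the background or close to it. For 1 gene, Il18, all 4 CAL_Dll4i libraries lay below all 4 controls (1.82%, against 2.35%), and none lay above (background 2.41%). The number lower at an unadjusted p under 0.05 was 7 without control replicate 3, 4 without CAL_Dll4i replicate 1, and 0 without control replicate 1 or CAL_Dll4i replicate 2. Here too the share of all genes in each refit is not given. A test for any difference among the 3 groups had 13 of 55 at an unadjusted p under 0.05 (23.6%, against 10.7% of all genes) and 0 after adjustment (background 0.00539%), while DESeq2 called 2, Il11 and Il13ra2 (3.64%, against 1.93%).

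**Figure D2:**
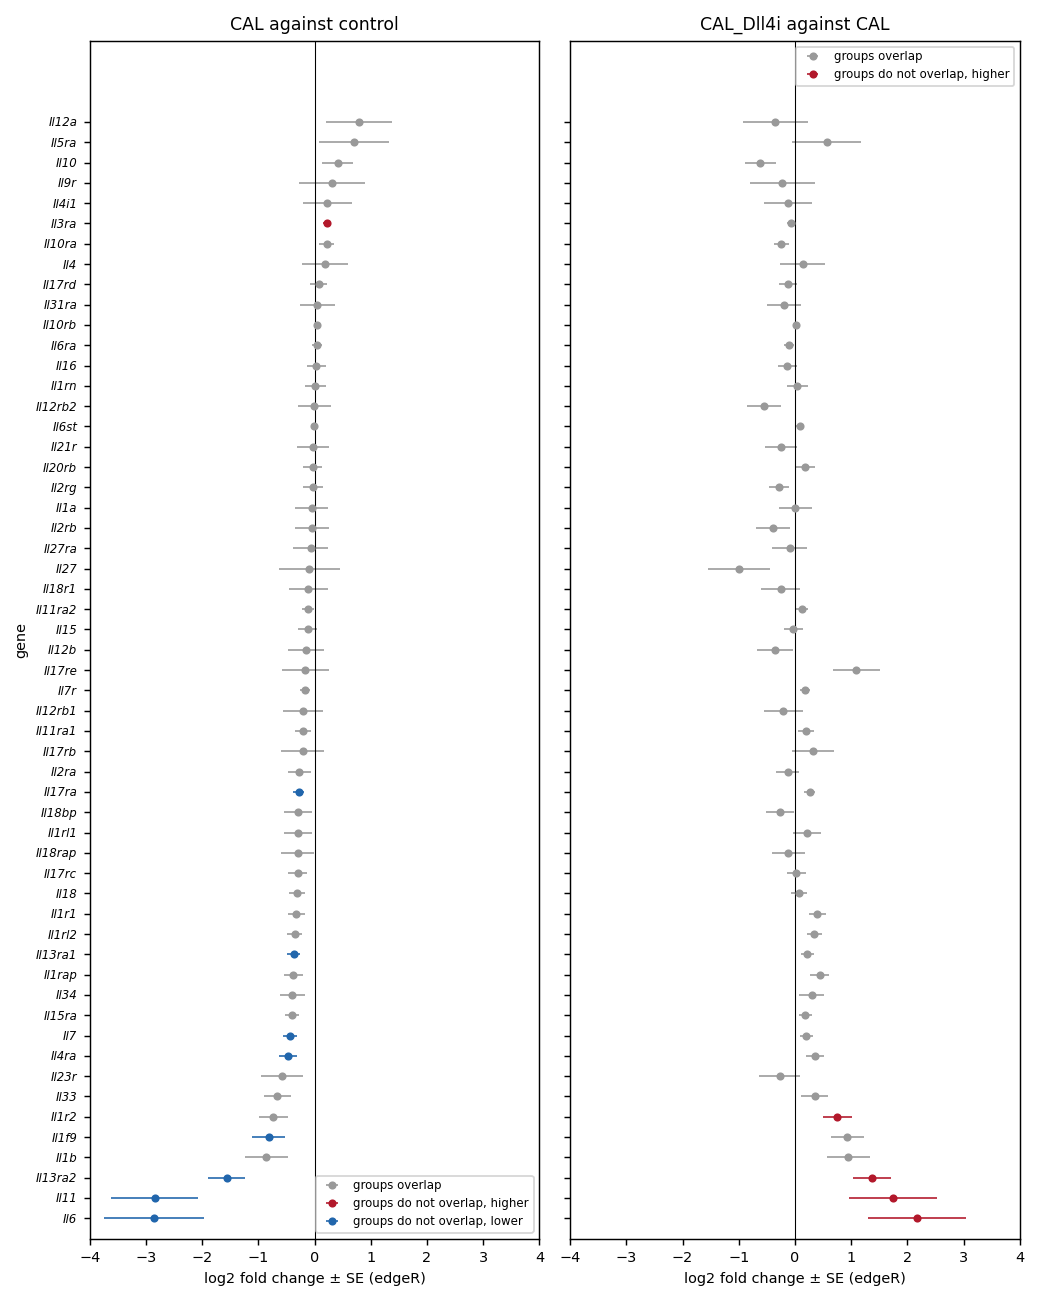
Log2 fold changes ± SE of all 55 genes from edgeR, for CAL against control (left) and CAL_Dll4i against CAL (right), in the order of the first. Red and blue mark genes whose groups of 4 libraries do not overlap; Il6, Il11 and Il13ra2 stand at the lower end on the left and the upper end on the right, and neither panel holds a gene past an adjusted p of 0.05.

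The gp130 family held both genes with the largest differences. Il6 encodes the cytokine IL-6, which signals through Il6ra and gp130 and drives the acute-phase response. It stood at 7.70, 2.39, 1.17 and 2.18 CPM in CAL_Dll4i replicates 1 to 4, at 0.585, 0.844, 0.930 and 0.623 CPM in CAL, and at 1.67, 1.57, 16.4 and 2.03 CPM in control. The CAL libraries were the 4 lowest of the 12, and 1 control and 1 CAL_Dll4i library were far above the rest of their groups. Group means were 3.36 ± 2.94 CPM in CAL_Dll4i, 0.746 ± 0.168 CPM in CAL and 5.41 ± 7.30 CPM in control (SD, n = 4 each).

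The log2 fold change of Il6 was -2.86 ± 0.89 in CAL against control (edgeR adjusted p = 0.209, DESeq2 0.0286, over all alternatives 0.0286 to 0.549). Without control replicate 3 it was -1.24 ± 0.53. In CAL_Dll4i against CAL it was 2.17 ± 0.87 (edgeR adjusted p = 0.659), or 1.36 ± 0.82 without CAL_Dll4i replicate 1. CAL_Dll4i against control gave -0.69 ± 0.81 (adjusted p = 0.873).

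Il11 encodes IL-11, a stromal cytokine of the same family linked to fibrosis. It stood at 1.31, 0.630, 0.379 and 0.397 CPM in CAL_Dll4i, at 0.138, 0.287, 0.236 and 0.152 CPM in CAL, and at 0.372, 0.498, 4.05 and 0.954 CPM in control. As with Il6, the 4 CAL libraries were the lowest and control replicate 3 was the highest. These levels rest on 8 to 16 reads per CAL library, against 24 to 87 in CAL_Dll4i and 22 to 270 in control. The log2 fold change was -2.85 ± 0.78 in CAL against control (edgeR adjusted p = 0.184, DESeq2 0.00718, over all alternatives 0.00718 to 0.504) and -1.58 ± 0.51 without control replicate 3. It was 1.74 ± 0.78 in CAL_Dll4i against CAL (adjusted p = 0.669).

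The receptor genes had estimates closer to 0, and the difference between ligands and receptors was not tested. Il6st had 391 ± 11.9 CPM in CAL_Dll4i, 368 ± 38.0 CPM in CAL and 370 ± 21.3 CPM in control, and Il6ra had 31.7 ± 2.46, 34.0 ± 1.37 and 33.1 ± 3.63 CPM in the same order of groups. The log2 fold changes of both genes lay between -0.10 and 0.09 in the 3 comparisons, within 1.5 times their SE of 0.07 or 0.08. Il11ra1 had 199 ± 28.9 CPM in CAL_Dll4i, 175 ± 27.2 CPM in CAL and 201 ± 34.1 CPM in control, with CAL again the lowest mean. Its log2 fold changes were -0.21 ± 0.14 in CAL against control, 0.19 ± 0.14 in CAL_Dll4i against CAL and -0.01 ± 0.14 in CAL_Dll4i against control. Il11ra2 is a near-identical copy of Il11ra1, so the split of reads between the 2 genes is uncertain. Il27, which encodes the p28 subunit of IL-27, averaged 1.08 ± 0.468 CPM in CAL_Dll4i, 2.15 ± 1.17 CPM in CAL and 2.31 ± 1.41 CPM in control, with wide overlap, and Il27ra and Il31ra had no unadjusted p under 0.05.

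Il13ra2 had the smallest p of the 55 genes. It encodes a receptor that binds IL-13 with high affinity and is often described as a decoy. It stood at 1.84, 1.59, 1.98 and 1.30 CPM in CAL_Dll4i, at 0.671, 0.790, 0.502 and 0.623 CPM in CAL, and at 0.794, 1.67, 2.97 and 2.22 CPM in control. All CAL libraries lay below all others, with control replicate 1 just above the highest of them. The log2 fold change was -1.57 ± 0.33 in CAL against control (a 2.96-fold lower level, edgeR adjusted p = 0.132, DESeq2 0.00224, over all alternatives 0.00224 to 0.346). Without control replicate 1 it was -1.82, with an edgeR adjusted p of 0.0367. In CAL_Dll4i against CAL it was 1.37 ± 0.33 (2.59-fold, adjusted p = 0.659), and in CAL_Dll4i against control -0.19 ± 0.32.

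The chains of the signalling IL-13 receptor had smaller estimates in CAL against control. Il13ra1, which joins Il4ra to form a receptor for IL-4 and IL-13, stood at 78.6, 71.3, 61.0 and 86.0 CPM in CAL_Dll4i, at 55.5, 66.0, 76.7 and 56.6 CPM in CAL, and at 80.1, 80.9, 87.2 and 82.1 CPM in control. Its log2 fold change in CAL against control was -0.37 ± 0.11 (edgeR adjusted p = 0.205), without overlap between the groups. Il4ra had 110 ± 17.6 CPM in CAL_Dll4i, 85.7 ± 12.7 CPM in CAL and 119 ± 23.6 CPM in control, and a log2 fold change of -0.47 ± 0.16 in CAL against control (edgeR adjusted p = 0.227). All 4 CAL libraries of Il4ra lay below all controls.

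The bases upstream of the start sites are shown for Il6, Il11 and Il13ra2, which had the lowest log2 fold changes in CAL against control. Those of Il1b, described below, are shown for comparison. The 250 bases before the RefSeq start were taken from assembly GRCm38.p6, and capitals mark matches on either strand to motifs of AP-1 (TGANTCA), NF-kB (GGGANTTTC), C/EBP (TTGNGCAAT) or STAT factors (TTCNNNGAA) or to the TATA box (letters searched TATAAA). No match of 1 motif overlapped a match of another in the 4 sequences. Il6 is read from chr5:30012864-30013113 on the plus strand, Il11 from chr7:4778142-4778391, Il13ra2 from chrX:147429193-147429442 and Il1b from chr2:129371140-129371389, these 3 on the minus strand.
Il6: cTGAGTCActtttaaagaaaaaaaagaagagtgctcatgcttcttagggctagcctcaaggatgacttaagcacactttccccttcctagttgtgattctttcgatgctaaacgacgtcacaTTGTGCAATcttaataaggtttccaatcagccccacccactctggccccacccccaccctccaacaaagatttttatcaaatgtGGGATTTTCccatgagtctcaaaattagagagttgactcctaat
Il11: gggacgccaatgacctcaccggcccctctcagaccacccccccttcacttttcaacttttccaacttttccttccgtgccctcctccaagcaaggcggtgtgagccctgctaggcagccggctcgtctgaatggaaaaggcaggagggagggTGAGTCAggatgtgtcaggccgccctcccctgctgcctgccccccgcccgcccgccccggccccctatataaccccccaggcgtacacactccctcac
Il13ra2: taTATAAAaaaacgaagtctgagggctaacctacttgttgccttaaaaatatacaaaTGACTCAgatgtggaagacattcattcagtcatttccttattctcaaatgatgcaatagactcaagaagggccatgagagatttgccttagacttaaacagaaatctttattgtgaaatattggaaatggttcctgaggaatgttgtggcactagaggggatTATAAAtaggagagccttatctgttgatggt
Il1b: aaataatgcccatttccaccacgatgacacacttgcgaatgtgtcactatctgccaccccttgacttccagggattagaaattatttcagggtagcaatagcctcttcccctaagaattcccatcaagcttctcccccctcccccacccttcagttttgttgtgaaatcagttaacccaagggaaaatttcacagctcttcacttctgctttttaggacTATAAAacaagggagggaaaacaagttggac

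The Il6 sequence holds an AP-1 match at its far end, a C/EBP match that begins 128 bases before the start and an NF-kB match at 44. Il11 holds an AP-1 match at 98 bases, while a second annotated Il11 start, at chr7:4782858-4783107, had no match to any of the 5 motifs. Il13ra2 holds an AP-1 match at 193 bases and TATA matches at 248 and 31, and Il1b a TATA match at 31. Among the 55 genes, 44 had a promoter in the RefSeq table, with 58 promoters in all. The AP-1 motif was found in 9 of these 58, in as many genes (Il1a, Il1rn, Il5ra, Il6, Il11, Il13ra2, Il15ra, Il16 and Il17rb), and in 6.75% of 32851 mouse promoters of the same length. The TATA motif was found in 7 of the 58 and in 12.4% of all promoters, and the STAT motif in 6 and in 7.02%. The NF-kB motif was found in 2 (Il6 and Il16) and in 0.941% of all, and the C/EBP motif in 1 (Il6) and in 0.539%. A match is a run of letters and does not show that a factor binds there.

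**Figure D3:**
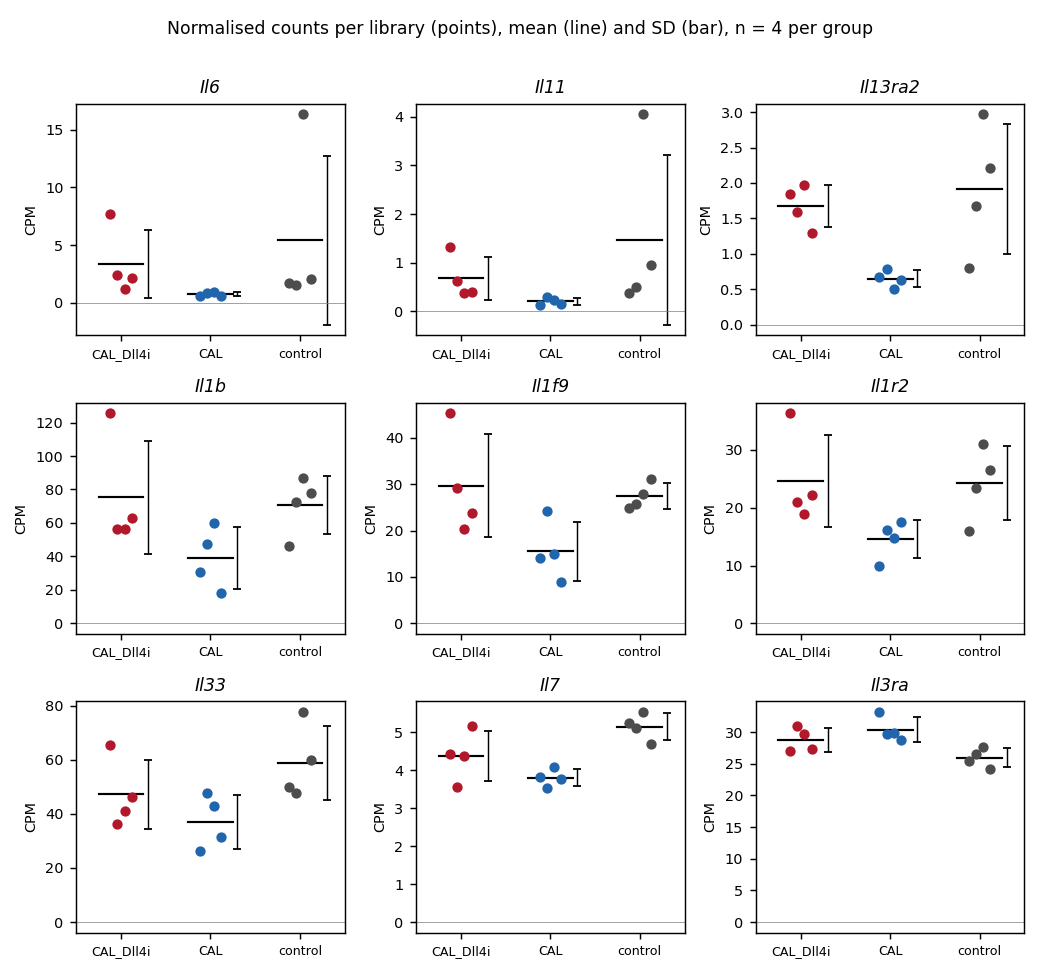
Normalised counts (CPM) of 9 genes in each of the 12 libraries, with the mean (line) and SD (bar) of each group of 4. CAL lies below the other groups for Il6, Il11 and Il13ra2 without overlap, single libraries set the spread of Il6 and Il11 in control and of Il1b in CAL_Dll4i, and Il3ra runs the other way.

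IL-1 family ligands start inflammation, and their antagonists block it. Of these 7 genes, 6 had a lower estimate in CAL against control (51.6% of all genes did) and 4 of them an unadjusted p under 0.05 (7.57% of all genes). In CAL_Dll4i against CAL 6 had a higher estimate (51.3% of all genes), 2 of them at that p (4.47%). Il1b stood at 126, 56.1, 56.5 and 63.2 CPM in CAL_Dll4i, at 30.5, 47.4, 60.2 and 18.4 CPM in CAL, and at 46.5, 72.8, 86.6 and 77.8 CPM in control. CAL replicates 1 and 4 were the 2 lowest of the 12 libraries, and CAL_Dll4i replicate 1 stood far above its group. Its log2 fold change was -0.86 ± 0.39 in CAL against control (edgeR adjusted p = 0.339) and 0.95 ± 0.39 in CAL_Dll4i against CAL (adjusted p = 0.659).

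Il1f9, which encodes IL-36 gamma, an IL-1 relative made by keratinocytes and other epithelia, stood at 45.3, 29.2, 20.3 and 23.9 CPM in CAL_Dll4i, at 14.0, 24.2, 15.03 and 8.91 CPM in CAL, and at 24.96, 25.7, 27.9 and 31.1 CPM in control. CAL lay below control without overlap, by -0.82 ± 0.30 on the log2 scale (edgeR adjusted p = 0.261), and below CAL_Dll4i except for replicate 2, the difference of CAL_Dll4i against CAL being 0.93 ± 0.30 (adjusted p = 0.659). Il33, an alarmin that stromal cells release on damage, stood at 65.4, 36.2, 41.0 and 46.3 CPM in CAL_Dll4i, at 26.2, 47.7, 42.9 and 31.6 CPM in CAL, and at 49.8, 47.6, 77.7 and 59.99 CPM in control. Its log2 fold change in CAL against control was -0.66 ± 0.24 (edgeR adjusted p = 0.253). The groups met at a single pair of values, 47.7 CPM in CAL and 47.6 CPM in control.

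Il18, a cytokine that inflammasomes activate, had 9.09 to 10.6 CPM in CAL_Dll4i, 7.68 to 12.7 CPM in CAL and 10.98 to 12.3 CPM in control. Its inhibitor Il18bp had 16.1 to 24.8 CPM in CAL_Dll4i, 14.9 to 34.5 CPM in CAL and 22.7 to 36.8 CPM in control, a log2 fold change of -0.56 ± 0.25 in CAL_Dll4i against control (edgeR adjusted p = 0.714). Il1a averaged 5.58 ± 1.42, 5.57 ± 2.00 and 5.77 ± 1.78 CPM in CAL_Dll4i, CAL and control. The antagonist Il1rn averaged 76.7 ± 20.0, 74.5 ± 13.4 and 73.7 ± 9.33 CPM in the same order, and its group means differed by less than the SD of any group.

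Among the 7 IL-1 family receptor genes, all 7 had a lower estimate in CAL against control, where 51.6% of all genes did, and 3 an unadjusted p under 0.05, where 7.57% did. In CAL_Dll4i against CAL 5 estimates were higher (51.3% of all genes) and 4 of these had an unadjusted p under 0.05 (4.47%). Of the 7, 6 lie side by side on chromosome 1, between 40084692 and 40551707 on GRCm38, in the order Il1r2, Il1r1, Il1rl2, Il1rl1, Il18r1 and Il18rap. Il1r2, the decoy receptor for IL-1, stood at 36.4, 20.9, 18.9 and 22.2 CPM in CAL_Dll4i, at 9.90, 16.2, 14.7 and 17.5 CPM in CAL, and at 15.9, 23.4, 31.1 and 26.5 CPM in control. CAL_Dll4i lay above CAL without overlap, by 0.76 ± 0.26 on the log2 scale (edgeR adjusted p = 0.659). CAL against control gave -0.73 ± 0.26 (adjusted p = 0.244).

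The signalling receptor Il1r1 averaged 112 ± 11.4 CPM in CAL_Dll4i, 85.2 ± 15.4 CPM in CAL and 107 ± 19.8 CPM in control. Il1rap, the chain that receptors for IL-1, IL-33 and IL-36 share, averaged 46.1 ± 8.46, 34.0 ± 5.18 and 44.3 ± 8.40 CPM, and Il1rl2, the IL-36 receptor, 35.4 ± 5.33, 27.9 ± 3.29 and 35.8 ± 5.21 CPM in those groups. Log2 fold changes in CAL_Dll4i against CAL were 0.39 ± 0.15 for Il1r1, 0.44 ± 0.17 for Il1rap and 0.34 ± 0.13 for Il1rl2 (edgeR adjusted p = 0.659 for each). The antisense gene Gm20319 overlaps 552 exonic bases of Il1rap, and the sources used here do not say whether counting used the strand. The neighbours Il18r1 and Il18rap, chains of the IL-18 receptor carried by T and NK cells, followed another order: their lowest library was CAL_Dll4i replicate 2 for both and their highest control replicate 1. Il1rl1, the IL-33 receptor, had 39.0 CPM in control replicate 3 and 15.2 to 25.5 CPM in the other 11 libraries.

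The mean of the summed neutrophil markers was lowest in CAL, as was that of Il1b. That list (8 of 10 genes in the table) summed to 227 to 311 CPM in CAL_Dll4i, 116 to 237 CPM in CAL and 227 to 427 CPM in control. In CAL its order over the 4 libraries was that of Il1b, with CAL replicate 4 lowest in both (116 CPM for the list and 18.4 CPM for Il1b) and replicate 3 highest (237 and 60.2 CPM). The orders differed in the other groups. In CAL_Dll4i the list was highest in replicate 4 (311 CPM, against 289 CPM in replicate 1) and Il1b in replicate 1. In control the list was highest in replicate 4 (427 CPM, against 228 CPM in replicate 3) and Il1b in replicate 3. Keratinocyte markers reached 502 CPM in CAL_Dll4i replicate 1, which also had the highest Il1f9, Il1b, Il1r2, Il1rn and Il20rb of all libraries. Control replicates 1 and 3, with 10.8 and 29.0 CPM of keratinocyte markers, had 24.96 and 27.9 CPM of Il1f9. The part of either cell type in the results above was not tested.

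**Figure D4:**
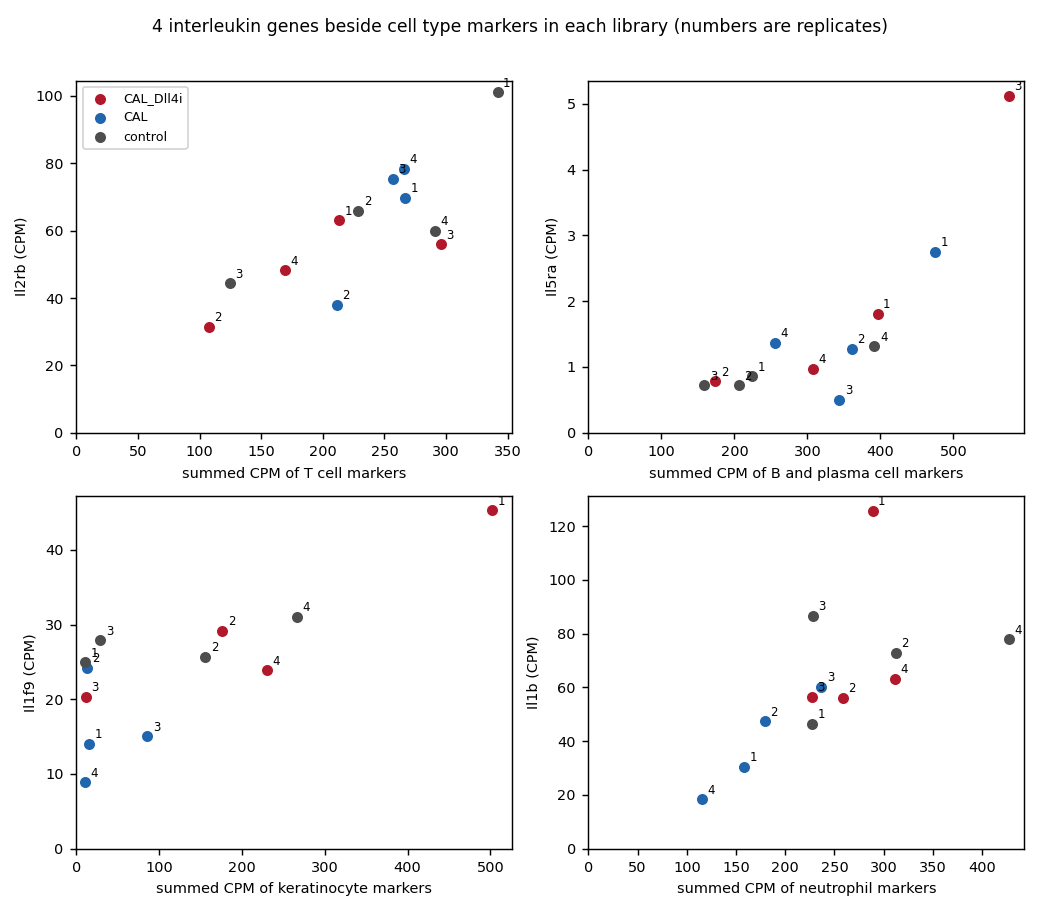
CPM of 4 genes against the summed CPM of a marker list in each library, a pair chosen for each panel after the values were seen (numbers are replicates). Il2rb is lowest and highest where T cell markers are, Il5ra is highest in the library with most B and plasma cell markers, Il1f9 is highest in the library with most keratinocyte markers, and the lowest Il1b, but not the highest, is in the library at the same end of the neutrophil list.

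The common gamma chain family, which serves lymphocyte growth and survival, had 11 genes, of which 9 had a lower estimate in CAL against control (51.6% of all genes) and 3 of these an unadjusted p under 0.05 (7.57%). Il7, the stromal cytokine that maintains lymphocytes, stood at 4.42, 3.56, 4.36 and 5.15 CPM in CAL_Dll4i, at 3.82, 3.54, 4.08 and 3.77 CPM in CAL, and at 5.26, 5.10, 5.54 and 4.70 CPM in control. CAL lay below control without overlap and with little spread. The log2 fold change was -0.44 ± 0.12 (a 1.35-fold lower level, edgeR adjusted p = 0.178, DESeq2 0.0301, over all alternatives 0.0301 to 0.510). CAL_Dll4i against CAL gave 0.20 ± 0.12 and CAL_Dll4i against control -0.23 ± 0.12. The antisense gene Gm16685 overlaps 105 exonic bases of Il7. Its receptor Il7r averaged 205 ± 8.59, 180 ± 23.7 and 203 ± 17.7 CPM in CAL_Dll4i, CAL and control.

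Il15ra, which presents IL-15 to neighbouring cells, averaged 31.0 ± 4.78 CPM in CAL_Dll4i, 27.3 ± 3.21 CPM in CAL and 36.0 ± 3.29 CPM in control, with a log2 fold change of -0.40 ± 0.12 in CAL against control (edgeR adjusted p = 0.195). Il15 itself averaged 21.8 ± 1.88, 22.2 ± 6.14 and 24.3 ± 3.05 CPM. The lymphocyte receptor chains Il2ra, Il2rb, Il2rg and Il21r had log2 fold changes of -0.27 to -0.03 in CAL against control, none with an unadjusted p under 0.05. They followed single libraries: CAL_Dll4i replicate 2 was the lowest of the 12 and control replicate 1 the highest for all 4 of these genes. The T cell list (10 of 10 genes in the table) was likewise lowest in CAL_Dll4i replicate 2 and highest in control replicate 1. Its sums ran from 108 to 296 CPM in CAL_Dll4i, from 211 to 267 CPM in CAL and from 124 to 342 CPM in control. Il4 and Il9r were near the lower end of the range, with at most 0.316 CPM of Il4 and 3.98 CPM of Il9r in any library. GENCODE annotates exons of Gm20489 on the same strand over 728 bases of Il2rg, and the antisense Gm44876 over 571 bases of Il4ra, so some of those counts are uncertain.

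The IL-12 family, which steers T cells and NK cells, had 5 genes and none with an unadjusted p under 0.05 in CAL against control or CAL_Dll4i against CAL. In CAL_Dll4i against CAL all 5 estimates were lower (48.7% of all genes), with a median log2 fold change of -0.35. Il23r, the IL-23 receptor of gamma delta and Th17 cells, stood at 3.31, 1.54, 3.51 and 1.69 CPM in CAL_Dll4i, at 2.55, 2.21, 3.99 and 3.41 CPM in CAL, and at 5.73, 3.79, 2.15 and 6.54 CPM in control. Control replicate 3 lay among the libraries of the other groups, and the log2 fold change in CAL_Dll4i against control was -0.86 ± 0.37 (edgeR adjusted p = 0.714). Il12b, the p40 subunit that IL-12 and IL-23 share, averaged 5.64 ± 1.65, 7.23 ± 2.24 and 8.02 ± 3.45 CPM in CAL_Dll4i, CAL and control. Il12a, the p35 subunit, averaged 0.794 ± 0.488, 1.02 ± 0.548 and 0.585 ± 0.392 CPM in the same order. Il12rb2 shares 1519 exonic bases with Serbp1 on the opposite strand, which leaves its counts uncertain.

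Il10 was the only gene lower at an unadjusted p under 0.05 in CAL_Dll4i against CAL (1.82%, against 2.95% of all genes). It encodes an anti-inflammatory cytokine of macrophages and regulatory lymphocytes. It stood at 1.43, 0.913, 0.980 and 1.21 CPM in CAL_Dll4i, at 2.00, 1.10, 1.45 and 2.42 CPM in CAL, and at 1.22, 1.04, 1.94 and 1.04 CPM in control. The groups overlapped, since CAL replicate 2 lay below CAL_Dll4i replicates 1 and 4. The log2 fold change was -0.62 ± 0.28 (edgeR adjusted p = 0.669), and in CAL against control 0.41 ± 0.28. Of its receptor chains, Il10ra averaged 91.7 ± 4.84, 109 ± 15.6 and 93.8 ± 17.8 CPM and Il10rb 107 ± 4.89, 105 ± 5.58 and 102 ± 5.47 CPM in CAL_Dll4i, CAL and control. Gm21970 shares 569 exonic bases with Il10rb on the same strand, so some counts of Il10rb, and its level and steadiness given above, are uncertain. Il20rb, a receptor chain for IL-19, IL-20 and IL-24, had 2.70 to 4.97 CPM in any library.

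Il3ra, the IL-3 receptor alpha chain, was the only interleukin gene higher in CAL than control without overlap (1.82%, against 3.61% of all genes). It stood at 27.1, 31.0, 29.7 and 27.4 CPM in CAL_Dll4i, at 33.2, 29.7, 29.8 and 28.8 CPM in CAL, and at 25.5, 26.5, 27.7 and 24.2 CPM in control. The log2 fold change was 0.23 ± 0.07 (edgeR adjusted p = 0.207), and 0.15 ± 0.07 in CAL_Dll4i against control (adjusted p = 0.716). Il5ra, the IL-5 receptor chain of eosinophils and some mouse B lineage cells, had 5.12 CPM in CAL_Dll4i replicate 3 and 0.502 to 2.75 CPM elsewhere. That library also had the most RNA of the B and plasma cell list (8 of 8 genes in the table) and of the skeletal muscle list (705 CPM). The sums of the B and plasma cell list ran from 174 to 576 CPM in CAL_Dll4i, 255 to 476 CPM in CAL and 159 to 392 CPM in control. The part of either cell type in the Il5ra values was not tested. Without CAL_Dll4i replicate 3 the log2 fold change of Il5ra in CAL_Dll4i against control was 0.39 ± 0.49, against 1.26 ± 0.62 with it.

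Of the IL-17 receptor genes, Il17ra, the chain common to receptors of the family, was the most abundant. It stood at 86.3, 69.8, 70.3 and 75.8 CPM in CAL_Dll4i, at 65.9, 64.9, 69.9 and 52.0 CPM in CAL, and at 73.4, 72.4, 75.9 and 86.5 CPM in control. CAL lay below control without overlap, by -0.29 ± 0.10 on the log2 scale (edgeR adjusted p = 0.233), while CAL replicate 3 and CAL_Dll4i replicate 2 met at 69.9 and 69.8 CPM. Il17re, which pairs with it to bind IL-17C, averaged 1.04 ± 0.451, 0.487 ± 0.202 and 0.545 ± 0.287 CPM in CAL_Dll4i, CAL and control. Its log2 fold change was 1.09 ± 0.41 in CAL_Dll4i against CAL (edgeR adjusted p = 0.659) and 0.92 ± 0.41 in CAL_Dll4i against control (adjusted p = 0.714). Il17rb, Il17rc and Il17rd had no unadjusted p under 0.05. Nor had Il16, a cytokine that binds CD4, Il34, a ligand of the CSF-1 receptor that averaged 8.72 ± 2.15, 7.10 ± 1.95 and 9.35 ± 1.37 CPM, or Il4i1, a secreted amino acid oxidase. Il16 and Il4i1 share 1202 and 3423 exonic bases with Stard5 and Tbc1d17 on the opposite strand.

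**Figure D5:**
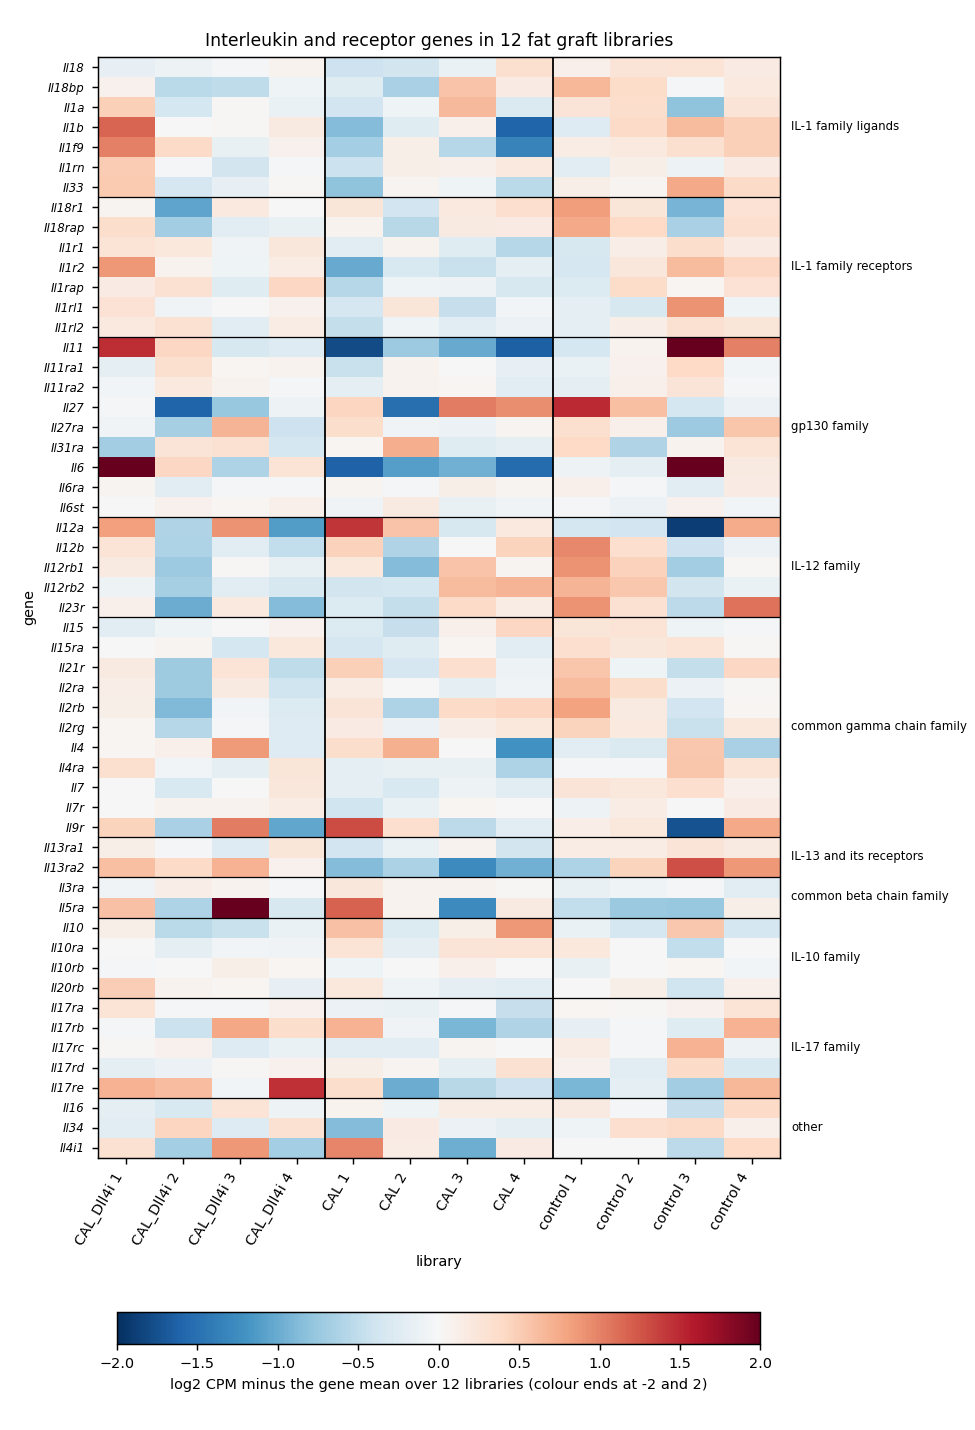
Log2 CPM of each of the 55 genes minus its mean over the 12 libraries, by family, with the colour scale ending at -2 and 2. The 4 CAL columns are blue for Il6, Il11 and Il13ra2, control replicate 3 is darkest red for Il6 and Il11, and CAL_Dll4i replicate 2 is blue across the lymphocyte receptor genes.

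Libraries differed from one another across many of these genes at once. Control replicate 3 was the highest of the 12 for 13 genes, Il6, Il11, Il11ra1, Il11ra2, Il13ra1, Il13ra2, Il17rc, Il17rd, Il1r1, Il1rl1, Il33, Il4ra and Il7, and the lowest for 7. Control replicate 1 was the highest for 11, most of them lymphocyte receptor genes. CAL replicate 1 and CAL_Dll4i replicate 2 were each the lowest for 12. Without CAL replicates 1 and 2 and CAL_Dll4i replicate 3, the libraries with muscle RNA, 12 genes were lower at an unadjusted p under 0.05 in CAL against control. In CAL_Dll4i against CAL 9 were higher at that p, and 0 passed adjustment by edgeR in either comparison. The share of all genes in this refit is not given, so these counts have no background beside them.

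Genes that act around the interleukins were read from 7 lists with 84 genes in the table. edgeR and voom called 0 of them in the 3 comparisons and in the test among the 3 groups, and DESeq2 called 4 in CAL against control, Ptx3, Chil3 and Cebpd lower and Crlf2 higher (backgrounds 1.49% lower and 1.84% higher). In the test among the 3 groups DESeq2 called 3 of them, Ptx3, Chil3 and Crlf2 (background 1.93%), and it called 0 in CAL_Dll4i against CAL and in CAL_Dll4i against control. Stat3, the transcription factor that gp130 activates, averaged 250.5 ± 24.6 CPM in CAL_Dll4i, 223 ± 14.9 CPM in CAL and 260.6 ± 8.22 CPM in control, a log2 fold change of -0.22 ± 0.07 in CAL against control (edgeR adjusted p = 0.207) with no overlap. Socs3, which Stat3 induces and which damps IL-6 signalling, averaged 16.2 ± 8.20, 8.91 ± 3.17 and 17.8 ± 6.995 CPM, a log2 fold change of -0.997 ± 0.39 (adjusted p = 0.282). These were the only genes of the JAK and STAT list (11 genes) and of the SOCS and feedback list (12 genes) with an unadjusted p under 0.05 in that comparison. Over all genes, 7.57% were lower and 7.01% higher at that p, so a single gene in each list is near the background.

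Of 12 genes in the list of IL-6 and IL-1 response genes, 10 had a lower estimate in CAL against control (51.6% of all genes). Of these, 4 had an unadjusted p under 0.05 (Cebpb, Cebpd, Ptx3 and Timp1, against 7.57% of all genes), and Hp was higher at that p (7.01% of all genes). Ptx3, a secreted pattern recognition protein, averaged 5.04 ± 1.29 CPM in CAL_Dll4i, 4.01 ± 1.33 CPM in CAL and 9.27 ± 4.75 CPM in control, and its log2 fold change in CAL against control was -1.21 ± 0.34 (edgeR adjusted p = 0.185, DESeq2 0.0159). In CAL_Dll4i against CAL 10 of the 12 had a higher estimate (51.3% of all genes), 1 of them at an unadjusted p under 0.05 (4.47% of all genes), the acute-phase gene Saa3 (164 ± 20.9 CPM in CAL_Dll4i and 111 ± 20.0 CPM in CAL, with no overlap). Of the list of IL-4 and IL-13 response genes (11 of 12 in the table) only Chil3 had an unadjusted p under 0.05 in CAL against control. Over all genes, 7.57% were lower and 7.01% higher at that p. Chil3, which encodes a chitinase-like protein of activated macrophages, had 5.84 to 10.1 CPM in CAL_Dll4i, 2.41 to 4.27 CPM in CAL and 4.82 to 74.9 CPM in control.

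Among 14 genes of gp130 relatives and shared chains, 7 estimates were higher and 7 lower in CAL against control (48.4% and 51.6% of all genes). Lif, Osm and Osmr were among those lower, and Crlf2 and Csf2ra among those higher, at an unadjusted p under 0.05. Over all genes, 7.57% were lower and 7.01% higher at that p. Osmr, the oncostatin M receptor, averaged 134 ± 17.4 CPM in CAL_Dll4i, 109 ± 15.2 CPM in CAL and 141 ± 30.7 CPM in control (log2 fold change in CAL against control -0.37 ± 0.16, edgeR adjusted p = 0.314). Crlf2, the receptor chain for TSLP, which pairs with Il7r, averaged 26.5 ± 1.96, 29.4 ± 0.496 and 23.5 ± 1.37 CPM, a log2 fold change of 0.32 ± 0.07 in CAL against control (edgeR adjusted p = 0.119, DESeq2 0.000947). Ebi3, which joins Il27 to form IL-27, averaged 9.19 ± 0.381, 13.7 ± 2.87 and 11.1 ± 2.48 CPM, and its log2 fold change in CAL_Dll4i against CAL was -0.58 ± 0.18 (edgeR adjusted p = 0.659). None of the 16 genes of the IL-1 and Toll adaptor list had an unadjusted p under 0.05 in any comparison. Of the 8 inflammasome genes only Casp4 had, being lower in CAL against control (-0.31 ± 0.12, edgeR adjusted p = 0.272). The background there was 7.57% of all genes lower at an unadjusted p under 0.05. Nlrp3, the inflammasome sensor, averaged 28.0 ± 8.07, 23.8 ± 6.02 and 29.3 ± 2.76 CPM in CAL_Dll4i, CAL and control.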

How the data were processed

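Per the labels, Trizol was used for RNA and a SureSelectXT RNA Direct kit for the libraries. The submitters' processing notes name HISAT2, StringTie and the build mm10 without versions. The authors deposited estimated counts (whole numbers, not scaled between libraries), FPKM and TPM for 19547 genes, per the file headers. The deposited FPKM values were used only to repeat the order of levels, and the deposited TPM values only to compare levels between genes. The sources used here do not say whether the authors counted by strand.

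Counts, already whole, went into edgeR 4.0.16 (R 4.3.3): TMM scaling, filterByExpr at its defaults (18551 genes kept), and a robust quasi-likelihood fit of all 12 libraries with 1 coefficient per group. The biological coefficient of variation was 0.237. P-values were adjusted by Benjamini-Hochberg over all genes tested and calls made under 0.05. Alternatives were DESeq2 1.42.0 and voom with sample weights (limma 3.58.1), other scalings and filters, a replicate block, and each library left out. The edgeR fit was also run on simulated data with known changes. Over the comparisons it recovered 14.3% to 28.1% of 1.5-fold, 53.4% to 63.2% of 2-fold and 97.1% to 98.4% of 4-fold changes. It made 6 to 8 false calls. The simulated spread depended on level alone, without spread particular to a gene or single outlying libraries, and 200 genes were changed. Recovery in the real libraries may therefore be lower. Il6 and Il11 had estimates beyond 4-fold in CAL against control and were not called by edgeR. Most 1.5-fold changes were missed even in the simulation, so a gene not called is not shown to be unchanged. A further setting, leaving out 3 libraries with muscle RNA, was chosen after seeing the data.

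The genes described and the gene lists were chosen with earlier results of these data known. Genes named with values were the 5 with the smallest p per direction and comparison, the 5 with the smallest p of the test among 3 groups, the 15 highest by mean TPM, a fixed list, genes with a library that stood apart, and in each of the 7 surrounding lists up to 3 genes with the smallest p plus Socs3, Stat3, Nlrp3 and Osmr. Other genes were named after their values were seen, where a count turned on them. A single item among the surrounding lists is not reported here. Positions and promoters come from RefSeq tables of GRCm38.p6, and exon overlaps from GENCODE M21. Plots used matplotlib 3.10.9 under Python 3.11.15.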

Additional observations from a re-analysis of the deposited data

Results flagged for a closer look

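In each group of 4 libraries, a value was set apart when its gap to the nearest other, divided by the range of the group, exceeded Dixon's 95% critical value. This held in 10 of 165 groups of libraries and genes, and chance alone sets apart about 5% of groups. Control replicate 3 accounted for 4 of them: it was the highest control for Il6 (16.4 CPM, next 2.03 CPM), Il11 (4.05, next 0.954 CPM) and Il1rl1 (39.0, next 19.8 CPM), and the lowest for Il1a (3.12, next 6.52 CPM). Control replicate 4 was the highest control for Il17rb, at 0.856 CPM, with the next at 0.514 CPM.

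Among CAL libraries, replicate 2 was lowest for Il10ra (85.4 CPM, next 116 CPM) and Il18rap (18.8, next 29.2 CPM). Replicate 1 was lowest for Il1rn (54.6, next 79.2 CPM), and replicate 4 for Il4ra (66.7, next 90.8 CPM). CAL_Dll4i replicate 1 was the highest of its group for Il1b, at 126 CPM, with the next at 63.2 CPM.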

How the results depend on the processing

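All genes were refitted under the alternatives, and 48 log2 fold changes of interleukin genes were followed through them. These had the smallest p per direction, an unadjusted p under 0.05 or no overlap between groups. All 48 kept their direction, which that choice made likely. Other genes did change direction. With 1 library left out, 33 to 42 genes had a lower estimate in CAL against control, where the fit reported had 41. The numbers were 21 to 27 in CAL_Dll4i against CAL (24 in the fit reported) and 30 to 41 in CAL_Dll4i against control (36). With DESeq2, 4 interleukin genes were called in CAL against control (Il6, Il7, Il11 and Il13ra2) and 2 in the test among 3 groups (Il11 and Il13ra2), against 0 with edgeR. Without a library in turn, the number called ranged from 0 to 1 in CAL against control (Il13ra2, without control replicate 1) and was 0 in the other comparisons. Numbers at an unadjusted p under 0.05 ranged from 10 to 17 lower and 1 to 2 higher in CAL against control, 5 to 14 higher and 0 to 4 lower in CAL_Dll4i against CAL, and 0 to 2 higher and 0 to 7 lower in CAL_Dll4i against control. For the last comparison, the number lower was 7 with voom, 1 with upper-quartile scaling and 0 with the replicate block, and the number higher 3 with DESeq2 or voom, 2 with upper-quartile scaling and 0 with only 2 groups in the fit, against 2 and 1 in the fit reported. For CAL_Dll4i against CAL the number lower was 0 with upper-quartile scaling, a filter at 1 CPM in 4 libraries or the replicate block, 2 with only 2 groups, and 3 without the libraries with muscle RNA, which left 0 higher in CAL against control. Shares of all genes at an unadjusted p under 0.05 are not given for these settings, so the counts have no background beside them. The causes of the shifts were not tested. With voom the log2 fold changes in CAL against control were -1.46 for Il6 and -1.69 for Il11. Same-numbered libraries of different groups deviated with r of -0.385 to 0.144 (12 pairs, 2 above 0.1) and no library correlated best with its own number, so the numbers were not taken to pair libraries. With the replicate block 0 interleukin genes were called in any comparison. The 15 highest genes by TPM were also the 15 highest by FPKM. Genes with few reads, such as Il4 and Il11, are measured with wide counting error.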
